A study of Arabidopsis thaliana with 24 samples.

Results

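The AUX/IAA genes described here are IAA1 (AT4G14560), IAA2 (AT3G23030), IAA3 (AT1G04240), IAA5 (AT1G15580), IAA6 (AT1G52830), IAA13 (AT2G33310), IAA14 (AT4G14550), IAA17 (AT1G04250), IAA19 (AT3G15540) and IAA29 (AT4G32280). They were taken by locus from the array values of *Arabidopsis thaliana* rosettes, and all 10 were found among the 27826 transcripts measured. The family has 29 genes on the array, so that 19 other AUX/IAA genes served as a comparison list.

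AUX/IAA proteins are short-lived nuclear repressors of auxin signalling. Auxin joins them to the F-box receptors TIR1 and AFB, the joined repressors are ubiquitinated and degraded, and the auxin response factors (ARF) to which they were bound become free to act on their target genes. Many AUX/IAA genes are themselves early auxin-induced targets, which gives the pathway a negative feedback, and in leaves and seedling stems several of them also respond to light through phytochromes and the PIF transcription factors.

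Plants of both genotypes, *gnat2* and WT, were grown on soil in short days for 4.5 weeks (ecotype Col-0, which the submitters also spell Co-0). The *gnat2* plants carry the SALK_033944 insertion, a single T-DNA knockout allele of GNAT2, which encodes a plastid acetyltransferase. After the first part of the light period, plants of both genotypes were placed for 2 h in high light (HL, 1000 µmol m-2 s-1) or in darkness (D), while control plants (C) stayed at 120 µmol m-2 s-1, and the rosettes were then harvested. Each of the 6 combinations of genotype and light had 4 biological replicates, each on its own Affymetrix AraGene array, which makes 24 arrays.

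All values below are log2 expression values. The number of arrays limits their precision, and low values come without a call of detection, so that the median of all transcripts on an array, 2.35, is given as a point of orientation only. The signal of GNAT2 itself (AT1G32070) lay between 1.53 and 2.39 on the *gnat2* arrays and between 5.31 and 6.30 on the WT arrays. The 5 green leaf markers included 4 with group means above the array median in every group, with LHCB1.1 the exception at 1.15 to 1.82, while none of the 5 flower and 3 shoot meristem markers reached it and at most 1 of the 5 root markers did.

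The 10 genes differed widely in how far their values moved across the 6 groups. The 6 group means of IAA29 spanned 5.17 on the log2 scale, and 0.313% of all transcripts had a wider span. The span was 2.56 for IAA2, 1.61 for IAA17, 1.52 for IAA1, 1.28 for IAA5, 1.13 for IAA3, 1.08 for IAA19, 0.99 for IAA13 and 0.89 for IAA14. IAA6 had the narrowest, 0.36, and 69.6% of all transcripts had a wider one. IAA6, also called SHY1 and found as a suppressor of a long-hypocotyl mutant, stayed below the array median on all 24 arrays, with group means between 1.14 and 1.51, and passed no test.

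**Figure D1:**
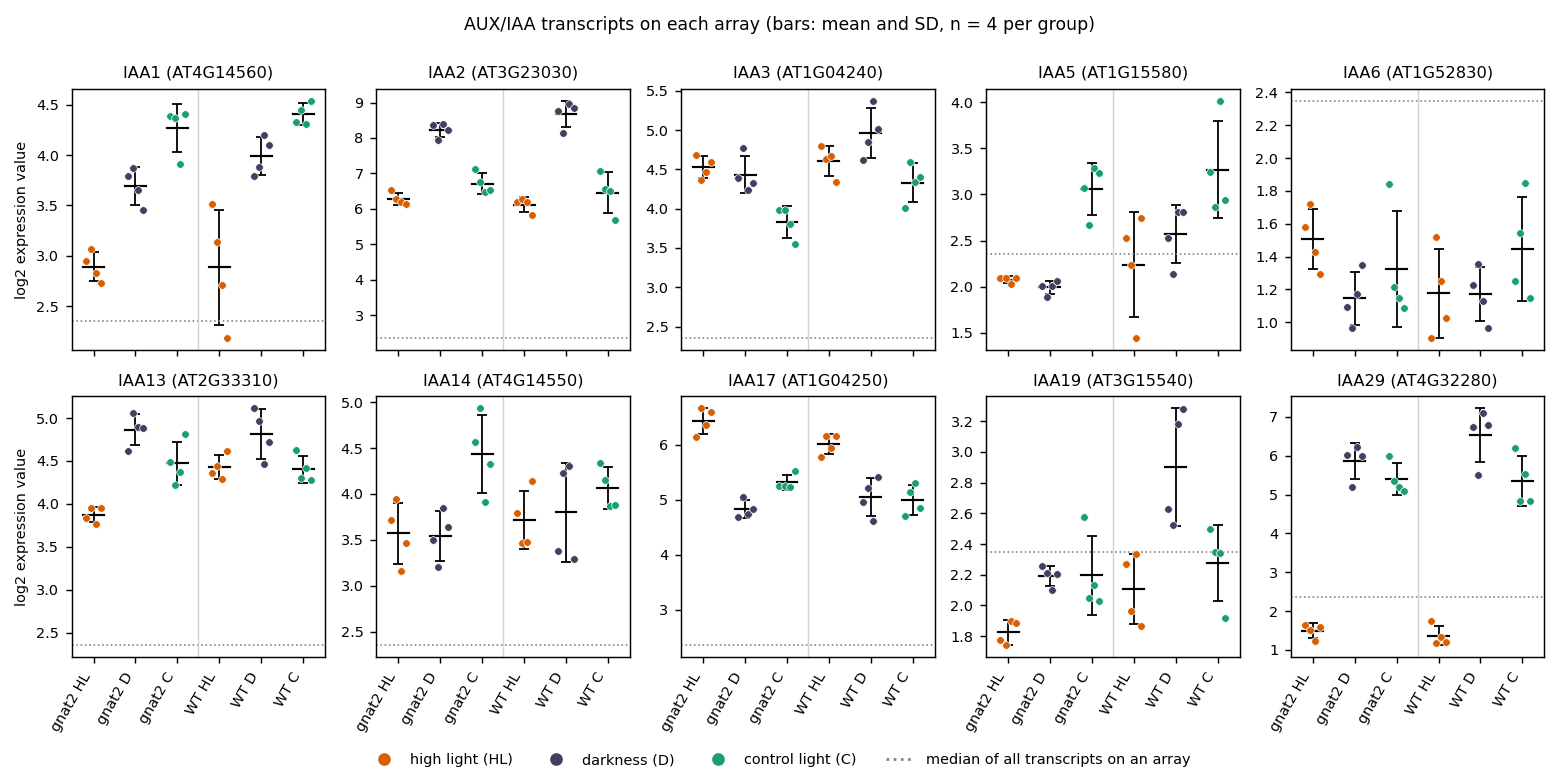
Log2 expression value (vertical axis, a separate scale per gene) of each of the 10 AUX/IAA transcripts on every array, with *gnat2* to the left of WT and HL, D and C within each genotype; horizontal bars are means, vertical bars the SD (n = 4), and the dotted line is the array median of 2.35. IAA29 sits between 1.18 and 1.73 on all 8 HL arrays and between 4.83 and 7.10 on the other 16 arrays, and IAA2 is highest on the D arrays of both genotypes.

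High light against control light asked how the rosettes answered 2 h of excess light. IAA29 and IAA1 fell and IAA17 rose by more than 2-fold in both genotypes. IAA5 fell in both by the adjusted p, and by more than 2-fold in WT only. Calls of light responses needed both a limma adjusted p below 0.05 and more than a 2-fold change. By this rule 1 of the 10 genes was called higher and 2 lower in *gnat2*, where 4.05% and 3.47% of all transcripts were called higher and lower. In WT, 1 was called higher and 3 lower, against 3.41% and 3.11% of all transcripts. The median log2 fold change of the 10 genes was -0.51 in *gnat2* and -0.30 in WT, and that of all transcripts was -0.0090 and -0.0059. With no limit on the fold, 7 of the 10 genes passed in *gnat2* (24.5% of all transcripts), 2 higher (12.5%) and 5 lower (12.1%), and 4 in WT (23.4%), 1 higher (11.9%) and 3 lower (11.5%). With a stricter log2 limit of 1.5, 1 passed in *gnat2* and 2 in WT, beside 840 and 725 of the 27826 transcripts. The genotypes were each compared with their own control arrays, and the same control arrays served the HL and the D comparison.

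IAA29 is a known target of PIF factors and is induced by shade and darkness in seedlings. In HL it stood at 1.65, 1.505, 1.22 and 1.60 on the *gnat2* arrays, against 5.99, 5.35, 5.18 and 5.09 in C. On the WT arrays it stood at 1.73, 1.18, 1.34 and 1.21 in HL, against 6.20, 4.84, 5.52 and 4.83 in C. Every HL array was below the array median and every C array was far above it, with no overlap in either genotype. It fell 15.0-fold in *gnat2* (log2 fold change -3.91 ± 0.30 SE, limma adjusted p = 2.93e-10) and 15.8-fold in WT (-3.98 ± 0.30, adjusted p = 2.44e-10). These folds rest on HL values at which signal was not separated from background, so that they are measured values only and their sizes are not comparable between the genotypes.

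IAA1 is an early auxin-induced gene, and a dominant mutant of it, *axr5*, has auxin-resistant roots. In HL it had 2.95, 3.07, 2.83 and 2.73 on the *gnat2* arrays, against 4.38, 4.37, 3.91 and 4.41 in C. On the WT arrays it had 3.52, 3.13, 2.71 and 2.18 in HL, against 4.33, 4.45, 4.31 and 4.54 in C. All HL values lay below all C values, and the WT HL arrays were spread more (SD 0.57) than those of *gnat2* (SD 0.15). The log2 fold change was -1.38 ± 0.19 in *gnat2* (adjusted p = 3.24e-06) and -1.52 ± 0.19 in WT (adjusted p = 8.58e-07).

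IAA17, also known as AXR3 from auxin-resistant dominant mutants, moved the other way. Its HL values were 6.14, 6.66, 6.35 and 6.59 on the *gnat2* arrays, against 5.25, 5.25, 5.24 and 5.52 in C. On the WT arrays they were 5.78, 6.16, 5.94 and 6.15 in HL, against 4.70, 5.15, 5.30 and 4.85 in C. HL and C arrays did not overlap in either genotype. The rise was 2.17-fold in *gnat2* (1.12 ± 0.16 on the log2 scale, adjusted p = 5.80e-06) and 2.01-fold in WT (1.01 ± 0.16, adjusted p = 2.73e-05), so that the WT value lay just above the 2-fold limit. It dropped just below that limit, to 0.91 to 0.96, when WT C replicate 1 or 4 or WT HL replicate 2 or 4 was left out, and to 0.9966 with array weights, each time with an adjusted p of at most 0.000235.

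IAA5, an early auxin-induced gene, lay near the array median. It had 2.10, 2.10, 2.02 and 2.09 in HL on the *gnat2* arrays, against 3.07, 2.67, 3.28 and 3.23 in C. On the WT arrays it had 2.52, 2.24, 1.44 and 2.75 in HL, against 3.24, 2.87, 4.02 and 2.94 in C. The HL arrays were below the C arrays in both genotypes, with a narrow gap in WT. The log2 fold change was -0.98 ± 0.23 in *gnat2*, which passed the adjusted p (0.00214) and not the 2-fold limit, and -1.03 ± 0.23 in WT, which passed both (adjusted p = 0.00155). These calls sat on the limit: the WT value was -0.78 without WT C replicate 3 and -0.76 without WT HL replicate 3, and the *gnat2* value was -1.12 without *gnat2* C replicate 2.

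The other genes moved by less than 2-fold in HL. In *gnat2*, 3 of them passed the adjusted p. IAA3, or SHY2, which restrains the root meristem and was found as a suppressor of a phytochrome-deficient mutant, was 0.70 ± 0.16 higher on the log2 scale in HL than in C (adjusted p = 0.00148). IAA13, a close relative of the embryo patterning gene IAA12, was lower by -0.60 ± 0.14 (adjusted p = 0.00206). IAA14, known as SOLITARY-ROOT for its part in lateral root formation, was lower by -0.86 ± 0.24 (adjusted p = 0.00729), and by -1.04 without *gnat2* C replicate 3. The *gnat2* HL and C arrays of IAA14 overlapped. None of these 3 passed in WT, where the log2 fold changes were 0.28, 0.02 and -0.34 with adjusted p = 0.246, 0.938 and 0.354. IAA2 had -0.42 ± 0.22 in *gnat2* and -0.34 ± 0.22 in WT and passed in neither (adjusted p = 0.190 and 0.316). IAA19 had -0.37 ± 0.16 in *gnat2* and -0.17 ± 0.16 in WT and passed in neither as well (adjusted p = 0.107 and 0.537).

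The rosette holds many cell types, and in bulk tissue fewer cells of a type and less RNA per cell cannot be told apart. Both phloem markers, SUC2 and SEOR1, moved with HL: the log2 of their summed linear levels was 5.77 to 6.04 on the *gnat2* HL arrays, against 6.84 to 7.17 on the *gnat2* C arrays, and 6.15 to 6.63 on the WT HL arrays, against 6.89 to 7.17 on the WT C arrays. The 3 guard cell markers gave 6.77 to 7.17 on the *gnat2* HL arrays, against 6.79 to 7.28 on the *gnat2* C arrays, and 6.998 to 7.45 on the WT HL arrays, against 6.91 to 7.07 on the WT C arrays. The part of these cells in the AUX/IAA values was not tested.

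**Figure D2:**
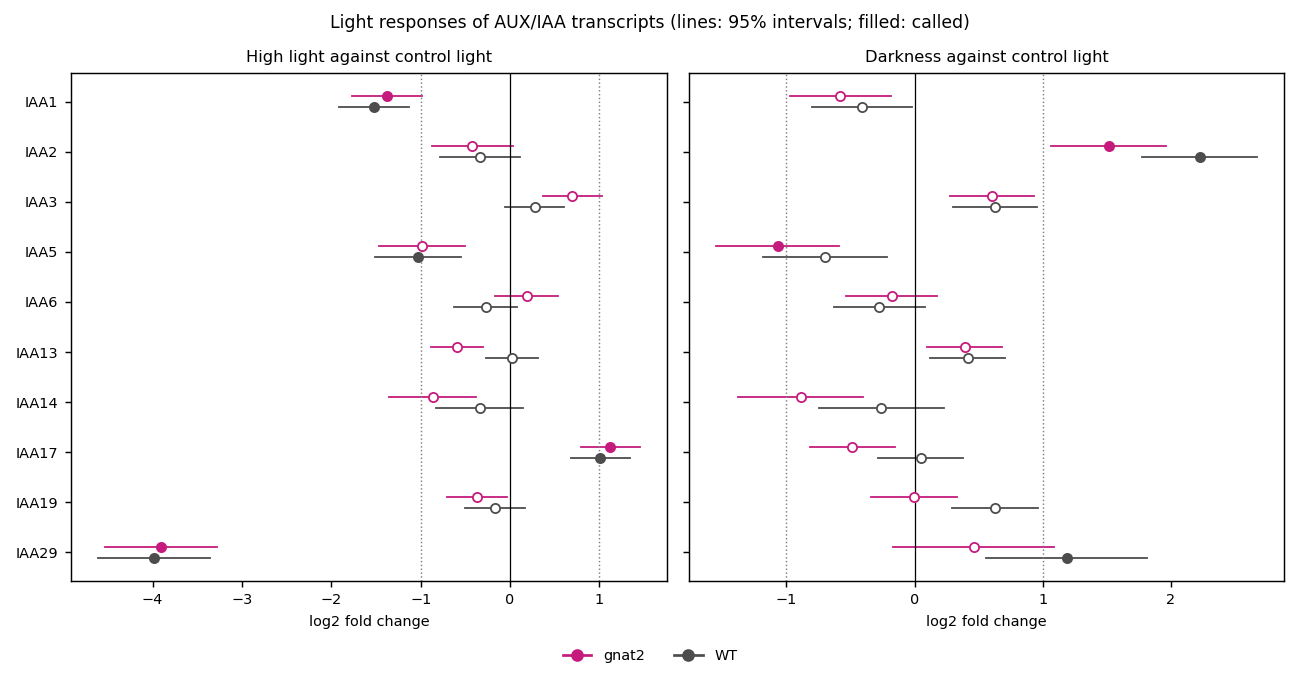
Log2 fold change (horizontal axis) of each AUX/IAA transcript in HL against C and in D against C, with *gnat2* above WT in each pair; lines are 95% intervals from limma, filled points passed the adjusted p and the 2-fold limit (dotted lines at -1 and 1). In HL the points of IAA29 lie at -3.91 and -3.98, and in D the points of IAA2 lie at 1.51 and 2.22.

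Darkness against control light asked how the rosettes answered 2 h without light in the middle of the day. IAA2 rose by more than 2-fold in both genotypes and IAA29 in WT. IAA5 fell in both by the adjusted p, and by more than 2-fold in *gnat2* only. In *gnat2* 1 gene was called higher and 1 lower, where 4.32% and 4.22% of all transcripts were called higher and lower. In WT 2 were called higher and 0 lower (in limma, 7 of the 10 had an unadjusted p under 0.05 in either direction), against 3.55% and 3.83% of all transcripts. With no limit on the fold, 7 genes passed in *gnat2* (27.8% of all transcripts), 3 higher (13.3%) and 4 lower (14.5%), and 6 in WT (25.8%), 5 higher (12.7%) and 1 lower (13.1%). With a log2 limit of 1.5, 1 passed in each genotype, beside 1001 of the 27826 transcripts in *gnat2* and 891 in WT. The median log2 fold change of the 10 genes was -0.09 in *gnat2* and 0.23 in WT, beside -0.0028 and 0.0004 for all transcripts.

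IAA2 is an early auxin-induced gene whose promoter is often used to report the auxin response. In D it had 8.36, 7.95, 8.39 and 8.21 on the *gnat2* arrays, against 7.12, 6.75, 6.46 and 6.52 in C. On the WT arrays it had 8.76, 8.14, 8.97 and 8.85 in D, against 7.08, 6.56, 6.51 and 5.68 in C. Every D array was above every C array of both genotypes, and the 4 WT C arrays were the most spread (SD 0.58). The rise was 2.86-fold in *gnat2* (1.51 ± 0.22 on the log2 scale, adjusted p = 5.08e-06) and 4.67-fold in WT (2.22 ± 0.22, adjusted p = 1.48e-08).

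IAA29 had 6.03, 5.19, 6.23 and 5.99 in D on the *gnat2* arrays, beside the C values given above (5.09 to 5.99). On the WT arrays it had 6.73, 5.51, 7.10 and 6.80 in D, against 4.83 to 6.20 in C. The D and C arrays overlapped in both genotypes, with replicate 2 the lowest D array of each. In WT the log2 fold change was 1.19 ± 0.30 (2.27-fold, adjusted p = 0.00419), and without WT D replicate 3 it was just under the limit (0.9972, adjusted p = 0.0227). In *gnat2* it was 0.46 ± 0.30 and did not pass (adjusted p = 0.327).

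IAA5 had 2.01, 1.89, 2.01 and 2.06 in D on the *gnat2* arrays, all below the lowest C value of 2.67. On the WT arrays it had 2.52, 2.14, 2.81 and 2.81 in D, below the lowest C value of 2.87. The log2 fold change was -1.07 ± 0.23 in *gnat2* (adjusted p = 0.000811; -0.9954 without *gnat2* C replicate 3) and -0.70 ± 0.23 in WT, which passed the adjusted p only (0.0278). IAA5 was thus lower than in C after both treatments in both genotypes by the adjusted p, which for D in WT reached 0.152 with an array left out.

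IAA3 and IAA13 were higher in D than in C in both genotypes by less than 2-fold. IAA3 had log2 fold changes of 0.60 ± 0.16 in *gnat2* (adjusted p = 0.00458) and 0.63 ± 0.16 in WT (adjusted p = 0.00369), and its D and C arrays did not overlap in either. IAA13 had 0.39 ± 0.14 in *gnat2* (adjusted p = 0.0404) and 0.41 ± 0.14 in WT (adjusted p = 0.0320), with overlapping arrays in both. Of the others, IAA1, IAA14 and IAA17 were lower in *gnat2* (-0.58, -0.89 and -0.49, adjusted p = 0.0225, 0.00504 and 0.0231) and did not pass in WT (-0.41, -0.26 and 0.05, adjusted p = 0.122, 0.497 and 0.885). IAA14 reached -1.06 in *gnat2* without *gnat2* C replicate 3.

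IAA19, or MSG2, which acts in hypocotyl bending and is like IAA29 a known PIF target, was low on most arrays. In D it had 2.25, 2.21, 2.10 and 2.20 on the *gnat2* arrays, against 2.57, 2.05, 2.13 and 2.03 in C. On the WT arrays it had 2.63, 2.52, 3.18 and 3.28 in D, against 2.50, 2.35, 2.34 and 1.92 in C. The WT D arrays were all above the WT C arrays and above the array median, and the *gnat2* D arrays lay among the *gnat2* C arrays. The log2 fold change was -0.0025 ± 0.16 in *gnat2* (adjusted p = 0.995) and 0.63 ± 0.16 in WT (adjusted p = 0.00454).

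The summed level of the 3 guard cell markers was 6.05 to 6.59 on the *gnat2* D arrays, against 6.79 to 7.28 on the *gnat2* C arrays, and 6.79 to 7.26 on the WT D arrays, against 6.91 to 7.07 on the WT C arrays. That of the phloem markers overlapped between D and C in both genotypes (6.84 to 7.12 against 6.84 to 7.17 in *gnat2*, and 6.97 to 7.28 against 6.89 to 7.17 in WT). Of the guard cell markers in *gnat2*, the group means in D and C were 5.42 and 6.33 for KAT1, and 4.85 and 5.19 for FAMA. For MYB60 they were 2.59 and 2.64, so that the sum mostly followed KAT1. The part of the guard cells in the AUX/IAA values was not tested.

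High light was also set against darkness, the widest contrast in light. In *gnat2* 3 of the 10 genes were called, beside 18.2% of all transcripts, and in WT 3, beside 15.4%. With no limit on the fold, 5 passed in *gnat2* and 6 in WT, beside 40.2% and 37.7%. IAA29 was lower in HL than in D in *gnat2* (log2 fold change -4.37 ± 0.30, adjusted p = 8.40e-12) and in WT (-5.17 ± 0.30, adjusted p = 4.15e-13), again with HL values not separated from background, so that the sizes are not comparable between the genotypes. IAA2 was lower by -1.94 ± 0.22 in *gnat2* (adjusted p = 4.43e-08) and by -2.56 ± 0.22 in WT (adjusted p = 4.15e-10). IAA17 was 1.61 ± 0.16 higher in *gnat2* (adjusted p = 5.76e-09) and 0.96 ± 0.16 higher in WT, under the 2-fold limit (adjusted p = 2.06e-05). IAA1 was lower by -1.11 ± 0.19 in WT (adjusted p = 2.94e-05) and by -0.80 ± 0.19 in *gnat2*, again under the limit (adjusted p = 0.00112).

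The order of the 6 groups differed from gene to gene. IAA29 was highest in WT D (6.53), followed by *gnat2* D (5.86), *gnat2* C (5.40), WT C (5.35), *gnat2* HL (1.49) and WT HL (1.37). Of the neighbours in that order that shared a genotype or a light, none differed by the adjusted p (0.228, 0.327, 0.957 and 0.904 from the top), and WT C and *gnat2* HL were not compared. IAA2 ran from WT D (8.68) and *gnat2* D (8.23) over *gnat2* C (6.71) and WT C (6.46) to *gnat2* HL (6.29) and WT HL (6.12). In IAA2 the step from *gnat2* D to *gnat2* C passed, and those between the genotypes in D, C and HL did not (adjusted p = 0.262, 0.613 and 0.786). IAA17 was highest in *gnat2* HL (6.44) and WT HL (6.01), and its 4 other group means lay between 4.83 and 5.32.

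*gnat2* against WT asked whether the loss of GNAT2 changed the levels within a light. Few of the 10 genes differed: IAA13 was lower in *gnat2* in HL, IAA19 was lower in *gnat2* in D, and 0 were called in C, where limma gave 1 gene an unadjusted p under 0.05. Here the adjusted p alone (below 0.05) decided, whatever the fold, and 1.92% of all transcripts were called in HL, 3.92% in D and 1.30% in C.

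In HL, IAA13 had 3.83, 3.95, 3.77 and 3.95 on the *gnat2* arrays, against 4.36, 4.44, 4.29 and 4.62 on the WT arrays. All *gnat2* values lay below all WT values. The log2 fold change was -0.55 ± 0.14 (1.47-fold lower, adjusted p = 0.0420). This call was near the threshold and was lost with an unmoderated test, a spread trended on intensity or cyclic loess (adjusted p = 0.0514, 0.0525 and 0.0628), and when any of the 8 arrays other than WT HL replicate 3 was left out (adjusted p between 0.0722 and 0.127).

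In D, IAA19 had 2.10 to 2.25 on the *gnat2* arrays, against 2.52 to 3.28 on the WT arrays, as listed above. The log2 fold change was -0.71 ± 0.16 (1.64-fold lower, adjusted p = 0.0150), and the groups did not overlap. The call was lost when the spread was taken from these 8 arrays alone (adjusted p = 0.0901), without WT D replicate 3 (0.0519) and without WT D replicate 4 (0.0531).

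In D, 9 of the 10 genes had lower means in *gnat2* than in WT, with a median log2 fold change of -0.38 beside -0.0151 for all transcripts, and 5 had an unadjusted p under 0.05. The guard cell markers were also lower, with a summed level of 6.05 to 6.59 on the *gnat2* D arrays, against 6.79 to 7.26 on the WT D arrays. Their group means in *gnat2* D and WT D were 5.42 and 6.35 for KAT1, 4.85 and 5.14 for FAMA, and 2.59 and 3.27 for MYB60. The phloem markers overlapped (6.84 to 7.12 against 6.97 to 7.28). The part of these markers in the AUX/IAA values was not tested. Some of the 10 genes had an unadjusted limma p under 0.05 and did not pass the adjusted p. They were IAA29 (-0.67 ± 0.30, adjusted p = 0.228), IAA5 (-0.58 ± 0.23, 0.172), IAA3 (-0.53 ± 0.16, 0.0616) and IAA2 (-0.45 ± 0.22, 0.262). IAA3 passed without *gnat2* D replicate 2 (0.0312) or WT D replicate 1 (0.0299), and IAA29 passed without WT D replicate 2 (0.0381). IAA5 had no overlap between the 4 *gnat2* D arrays (1.89 to 2.06) and the 4 WT D arrays (2.14 to 2.81). In C, IAA3 had 3.98, 3.98, 3.81 and 3.55 on the *gnat2* arrays, against 4.00, 4.59, 4.34 and 4.40 on the WT arrays, and its log2 fold change of -0.50 ± 0.16 did not pass (adjusted p = 0.113).

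**Figure D3:**
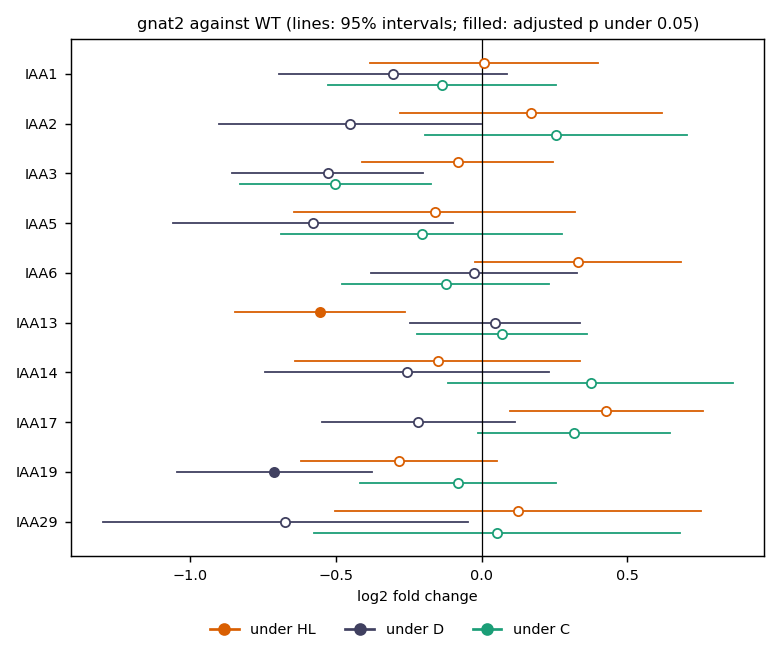
Log2 fold change of *gnat2* against WT (horizontal axis) for each AUX/IAA transcript under HL, D and C; lines are 95% intervals from limma and filled points have an adjusted p under 0.05. The filled points are IAA13 under HL at -0.55 and IAA19 under D at -0.71.

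Whether the genotypes answered the light differently was tested as the response in *gnat2* minus the response in WT. No gene of the 10 was called for HL or for D by limma: the smallest adjusted p was 0.531 for HL and 0.523 for D, and 1 and 3 genes had an unadjusted p under 0.05. Of all transcripts, 0.0108% and 0.0288% were called by the adjusted p, and the share under an unadjusted p of 0.05 was not taken. For HL the widest difference was that of IAA13 (-0.62, 95% interval -1.04 to -0.21). For IAA29 the HL values of both genotypes were not separated from background, so that its HL responses could not be compared in size. For D the median difference was -0.45 over the 10 genes, beside -0.0022 for all transcripts. The 10 differences share their arrays with each other, and the genotype comparison in D shares arrays with them. The difference was -0.73 for IAA29 (interval -1.61 to 0.16), -0.71 for IAA2 (-1.34 to -0.07), -0.63 for IAA19 (-1.10 to -0.16), -0.63 for IAA14 (-1.32 to 0.06) and -0.53 for IAA17 (-1.002 to -0.07). A response that passed in one genotype only, such as that of IAA29 to D, is therefore not shown to differ between them.

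Some of these genes are neighbours in the genome. In the TAIR10.1 annotation of RefSeq, IAA3 and IAA17 on chromosome 1, IAA2 and IAA7 on chromosome 3, and IAA14 and IAA1 on chromosome 4 each have 0 protein-coding genes and 1 other annotated gene between them. In HL, IAA17 rose by 1.12 and 1.01 on the log2 scale in *gnat2* and WT, and its neighbour IAA3 had 0.70 and 0.28. IAA1 had -1.38 and -1.52, and its neighbour IAA14 had -0.86 and -0.34. In D, IAA2 rose by 1.51 in *gnat2* and 2.22 in WT, and its neighbour IAA7, a repressor also known as AXR2, rose by 1.40 and 1.33 (adjusted p = 2.05e-07 and 5.70e-07). The values of each pair thus had the same sign in these contrasts, in each of which a member was called in both genotypes. In WT, however, IAA3 and IAA14 did not pass in HL (limma adjusted p = 0.246 and 0.354). In D, IAA17 had -0.49 and 0.05 and IAA3 had 0.60 and 0.63. For IAA1 and IAA14 both values were negative in D as well, and passed the adjusted p in *gnat2* only.

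For the genes with the widest spans, the transcripts with the most similar pattern were sought by the root mean square difference of the 6 group means, each centred on its own mean. For IAA29 these were HBI1 (AT2G18300, 0.21 on the log2 scale), OFP16 (AT2G32100, 0.23) and AT5G02760 (0.25). HBI1 had 3.168 in *gnat2* HL, 8.13 in *gnat2* D and 7.03 in *gnat2* C, and 3.35, 8.34 and 7.23 in WT HL, D and C. For IAA2 they were bZIP1 (AT5G49450, 0.12), AT5G49448, whose values equalled those of bZIP1 to 2 decimals in each group, and AT5G03120 (0.17). With such equal values, bZIP1 and AT5G49448 may be a single signal. The group means of bZIP1 in HL and C, 1.26 to 1.65, were below the array median of 2.35. For IAA17 they were TRM82 (AT1G03110, 0.06), EIF3G2 (AT5G06000, 0.06) and AT4G04670 (0.07), whose group means spanned 1.42 to 1.60. EIF3G2 had group means of 1.59 to 1.95 in D and C, also below the array median. The likeness was taken over 6 group means only and carries no test.

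The rest of the auxin pathway was read from lists of genes found by symbol: 6 receptors, 19 other AUX/IAA, 22 ARF, 7 GH3 amido synthetases, which conjugate auxin to amino acids, 80 SAUR, a family of small auxin-induced proteins, 14 genes of auxin synthesis and 15 of auxin transport. In HL, 1 receptor, 1 other AUX/IAA, 1 ARF, 9 SAUR and 6 transport genes were called lower in *gnat2*, and 3 SAUR were called higher. By the same rule 3.47% of all transcripts were called lower and 4.05% higher. In WT 0 receptors, 0 other AUX/IAA, 1 ARF, 8 SAUR and 5 transport genes were called lower and 1 SAUR higher. The shares of all transcripts in WT were 3.11% lower and 3.41% higher. By the adjusted p alone, 4 of 6 receptors and 8 of 15 transport genes were lower in *gnat2* and 3 and 7 in WT, beside 12.1% and 11.5% of all transcripts lower by the same rule. The median log2 fold change in HL was -0.48 and -0.43 for the receptors and -0.29 and -0.32 for the transport genes in *gnat2* and WT.

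The auxin efflux carrier PIN4 changed the most among the transport genes, with mean values of 3.71 in *gnat2* HL, against 6.55 in *gnat2* C, and 3.81 in WT HL, against 6.46 in WT C (log2 fold changes -2.85 and -2.64, adjusted p = 2.87e-13 and 1.14e-12). PIN7 fell in both as well (-1.54 in *gnat2* and -1.78 in WT), and so did ABCB19, another efflux carrier (-1.65 and -1.78). ARF19, an activating response factor, fell by 2.00 in *gnat2* and 1.77 in WT (adjusted p = 3.70e-08 and 2.85e-07). The receptor TIR1 fell by 1.05 in *gnat2* (adjusted p = 1.44e-07), and in WT it was -0.83, under the 2-fold limit (adjusted p = 5.43e-06). SAUR64, SAUR21 (AT5G18030) and SAUR24 fell in both genotypes, with log2 fold changes of -3.05, -3.097 and -2.21 in *gnat2* and -3.502, -3.43 and -3.28 in WT. These SAUR genes have near-identical neighbours, so that the probes may not separate them.

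In D, 0 receptors were called in either genotype, and 3 of 6 in *gnat2* and 4 of 6 in WT were higher by the adjusted p alone, with medians of 0.40 and 0.39, beside 13.3% and 12.7% of all transcripts. Of the 19 other AUX/IAA genes, 3 were called higher in *gnat2* (IAA7, IAA16 and IAA26) and 2 in WT (IAA7 and IAA16). By the same rule 4.32% and 3.55% of all transcripts were called higher. IAA16, close in sequence to IAA7, IAA14 and IAA17, had means of 8.24 in *gnat2* D, against 7.16 in *gnat2* C, and 8.74 in WT D, against 7.38 in WT C (log2 fold changes 1.08 and 1.36). ARF11 had log2 fold changes of -1.18 in *gnat2* and -0.91 in WT, the latter under the 2-fold limit (limma adjusted p = 0.000159). ARF19 had 1.33 in WT and 0.99 in *gnat2*, the latter again under the limit (adjusted p = 0.000526). Of the 22 ARF, 0 were called for a difference of the D responses between the genotypes. Among the synthesis genes 0 were called in *gnat2* (1 higher and 1 lower by the adjusted p alone) and 2 in WT, where YUC9 and TAA1, enzymes of the route from tryptophan to auxin, rose by 1.93 and 1.13 (adjusted p = 4.57e-05 and 0.000161). The share of all transcripts called higher in WT was 3.55%. Both genes lay below the array median of 2.35 on all WT C arrays (YUC9 at 1.37 to 1.73, TAA1 at 1.19 to 1.99). The WT D arrays of YUC9 ran from 2.15 to 4.29. In *gnat2* YUC9 had 0.49 (adjusted p = 0.323) and TAA1 had 0.72 (adjusted p = 0.0108). Of the 14 synthesis genes, 0 were called for a difference of the D responses, so that a difference between the genotypes is not shown. Among the 80 SAUR genes, 4 were called higher and 3 lower in D in *gnat2*, and 5 and 1 in WT. Among the 15 transport genes, 0 were called in *gnat2*, and 1 was called higher and 0 lower in WT. The shares of all transcripts were 4.32% and 3.55% higher, and 4.22% and 3.83% lower, in *gnat2* and WT.

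The GH3 genes, which like the AUX/IAA and SAUR genes are early auxin-induced, showed 0 calls against C in either light and genotype. By the adjusted p alone, 1 of 7 was lower in HL in *gnat2* (12.1% of all transcripts) and 0 in WT (11.5%). In D, 2 were higher in *gnat2* (13.3%) and 2 in WT (12.7%). Between genotypes, 3 of the 19 other AUX/IAA genes were called in D, where 3.92% of all transcripts were called in either direction. All 3 were lower in *gnat2*: IAA9 (-0.45 ± 0.09, adjusted p = 0.00872), IAA16 (-0.50 ± 0.12, adjusted p = 0.0243) and IAA28 (-0.60 ± 0.15, adjusted p = 0.0212). They were named after their values were seen. In HL and in C 0 of the 19 were called by limma, and the median over the 19 genes was -0.20 in HL, -0.11 in D and -0.23 in C.

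**Figure D4:**
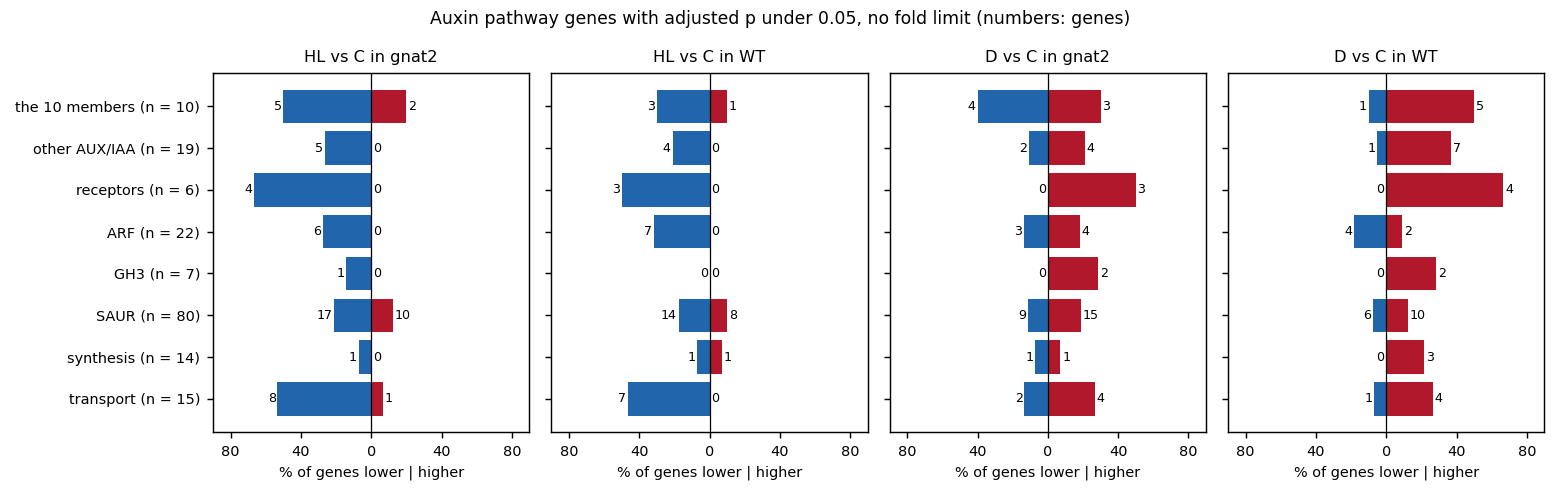
Share of the genes of each auxin list (horizontal axis, percent, lower in blue to the left and higher in red to the right) that passed the adjusted p threshold of 0.05 whatever the fold, for HL and D against C in *gnat2* and WT; the numbers are counts of genes. Of the 15 transport genes 8 are lower in HL in *gnat2* and 7 in WT, and of the 10 AUX/IAA genes 5 are higher and 1 is lower in D in WT.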

How the data were processed

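RNA of the rosettes was hybridized to Affymetrix AraGene-1_0-st arrays. Per the methods, a custom chip definition file grouped the probes into genes as TAIR defines them, RMA was used for the background and quantile normalization for the arrays, and the log2 values deposited by the authors were used unchanged, with 27826 transcripts and 0 missing values on each of 24 arrays. Quantile normalization removes differences in total RNA, and no raw intensities were used. The genome build behind the TAIR definitions is not given in the sources used here, so that no coordinates are given. Symbols came from the RefSeq table of TAIR10.1, which listed 27241 of the transcripts, and 2 auxin oxidation genes sought by symbol were not matched.

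In R 4.3.3, limma 3.58.1 was fitted with 1 mean per genotype and light (18 residual and 6.05 prior degrees of freedom), with two-sided tests and Benjamini-Hochberg adjustment over all transcripts within each comparison. Limma was used in place of the one-way ANOVA that the methods name. In tests on simulated data, 100 transcripts each were changed by 1.5 or 3 on the log2 scale among 27826, and 79% to 99% and 100% of them were called over the comparisons, with 1 to 17 unchanged ones called. Changes smaller than 1.5 were not simulated, so that the recovery of such changes is not shown. The alternatives were another estimate of the spread, array weights, a filter on dim transcripts, median centring, cyclic loess, a replicate block, only the compared arrays, other fold limits and leaving out each array.

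The 10 genes and the auxin lists were chosen with earlier results of these data known. All 10 are named, of each list at most 3 genes with the largest change among those called against C, and other names are said to have been chosen after their values were seen. Arrays of one group are plants described as biological replicates.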

Additional observations from a re-analysis of the deposited data

Results flagged for a closer look

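Of the 60 groups of 4 arrays examined for the 10 genes, 3 held an array set apart from the others, and chance alone sets apart about 1 group in 20. IAA1 had 3.91 on *gnat2* C replicate 3, and the other arrays of that group had 4.37 to 4.41. IAA17 had 5.52 on *gnat2* C replicate 4, and the others had 5.24 to 5.25. IAA5 had 2.02 on *gnat2* HL replicate 3, and the others had 2.09 to 2.10, a gap that stands out only because those 3 arrays lay so close together. Of the 20 tests of a difference between the responses of the genotypes, 0 passed by limma at an adjusted p under 0.05, with 4 at an unadjusted p under 0.05.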

How the results depend on the processing

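No log2 fold change of the 10 genes that was called reversed its sign under the alternatives run. The calls depended on the fold limit. With no fold limit, 7 genes were called in HL and 7 in D against C in *gnat2*, 6 in D against C in WT, 5 in HL against D in *gnat2* and 6 in HL against D in WT. With a log2 limit of 1.5, 1 (IAA29) and 2 (IAA29 and IAA1) were called in HL in *gnat2* and WT, and 1 (IAA2) in D in each genotype. Between genotypes in HL, 0 genes were called with the unmoderated test, the intensity trend and cyclic loess, and 0 to 1 with an array left out. In D, 0 were called with only the compared arrays, and 0 to 2 with an array left out. For D against C in WT the count was 1 to 2. Whether the replicate numbers mark shared batches is not given in the labels. Deviations of same-numbered arrays correlated weakly, at 0.022 to 0.24 over 36 pairs, with 12 over 0.1 and in no comparison all 4, and 31 of the 36 correlated best with their own number, a hint of pairing from the data, not from the design. The replicate block left the counts at 3 and 4 in HL and 2 and 2 in D against C for *gnat2* and WT, 3 and 3 in HL against D, 1, 1 and 0 between genotypes in HL, D and C, and 0 and 0 for the differences of the responses. The filter on dim transcripts removed IAA6. Values near the array median limit what can be said of IAA5 and IAA19, and values well below it limit what can be said of IAA6 and of IAA29 in HL.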

Other observations

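Outside the AUX/IAA genes, few genes of the auxin lists differed between *gnat2* and WT, and those named here were chosen after their values were seen. In HL, 3 of the 80 SAUR genes were called higher in *gnat2* and 2 lower, where 1.92% of all transcripts were called in either direction. Among these SAUR genes were SAUR51 (1.29 ± 0.17 on the log2 scale, adjusted p = 0.000183) and SAUR63 (-0.94 ± 0.17, adjusted p = 0.00439). The HL response of SAUR51 differed between the genotypes (1.55 ± 0.24, adjusted p = 0.0173), and it was the only gene of the lists for which the difference of the HL responses passed. In D, 1 SAUR gene was called higher in *gnat2* and 2 lower, where 3.92% of all transcripts were called in either direction. ARF22, an auxin response factor, was higher in *gnat2* in D (0.78 ± 0.18, adjusted p = 0.0143), PIN2, an auxin efflux carrier known from roots, was higher too (0.59 ± 0.15, adjusted p = 0.0312), and TAR2, an enzyme of auxin synthesis, was lower (-0.60 ± 0.15, adjusted p = 0.0227).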
